A study of Danio rerio with 6 samples.

Results

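The embryonic and larval globins of zebrafish are 9 genes in the deposited tables, 4 alpha chains (hbae1.1, hbae1.3, hbae3 and hbae5) and 5 beta chains (hbbe1.1, hbbe1.2, hbbe1.3, hbbe2 and hbbe3), out of 36191 gene IDs. They were chosen by gene name, with earlier results of these data already known. The tables name 8 of them directly, and hbae1.1 was found as gene ID 30597, which the tables call hbae1. Gene ID 572729, called hbae1.3 in the tables and here, carries the symbol hbae1.2 in the newer RefSeq gene table, where the symbol hbae1.3 belongs to another gene. That gene is LOC100334599 in the deposited tables and is given here beside the 9 genes, not among them.

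The study sequenced RNA of 6 samples that the labels call liver, from zebrafish of the AB strain, wild type and 3 months old. The 3 GO libraries came from fish treated with graphene oxide nanoparticles, a sheet-like carbon material, and the 3 CK libraries from untreated controls of the same strain, genotype and age. No dose or exposure time was used here, and the labels do not say whether a library holds 1 fish or a pool. If the numbered libraries are not separate animals, the p-values below measure technical spread.

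Haemoglobin carries oxygen in red cells and is assembled from alpha and beta globin chains around haem, so both chain types are needed together. Zebrafish use one set of globin genes as embryos and larvae and another as adults, and their red cells keep a nucleus. The genes lie in a major locus, where embryonic, larval and adult genes sit side by side with alpha and beta genes interleaved, and in a separate minor locus. In the RefSeq order the major locus holds hbbe1.1, hbae1.1, hbbe1.2, the table's hbae1.3, hbbe1.3, LOC100334599 and hbae3 in a row, with si:ch211-5k11.8 between them and the adult genes. The minor locus holds hbae4 (hbz in the tables), hbbe3, hbbe2 and hbae5.

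Total expected counts, which are estimated read counts per gene, ran from 9739760 to 12998273 per library. In GO and in CK alike, replicate 3 was unlike replicates 1 and 2. The chi-square per degree of freedom between libraries of a group was 57.4 to 70.0 where replicate 3 was one of the pair, and 1.56 (GO) and 1.62 (CK) between replicates 1 and 2. A list of 20 hepatocyte markers summed to 14807 counts per 1000000 (CPM) in GO replicate 3 and to 584 and 564 CPM in GO replicates 1 and 2. In CK it summed to 13268 CPM in replicate 3 and to 1252 and 1241 CPM in replicates 1 and 2. A list of 16 skeletal muscle markers summed to 70591 to 102332 CPM, above the hepatocyte list in every library despite the liver label.

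The globins expressed in these libraries were the embryonic and larval ones. The 9 genes held 106761 expected counts over all 6 libraries, while 5 adult globin genes (hbaa1, hbaa2, ba1, ba1l and hbba2) held 4.88. Of the adult genes, hbaa1 had 0.88 and 2 counts in GO replicates 1 and 3 and 1 count in CK replicate 1, and ba1 had 1 count in GO replicate 3. The genes hbaa2, ba1l and hbba2 were at 0 throughout, which still leaves room for 3 counts, or 0.308 CPM, in the shallowest library. Adult red cell markers were thus at or near 0 in libraries labelled as coming from fish of 3 months.

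The alpha chains were led by hbae3, which stood in TPM (transcripts per 1000000, a level per length) at 2093, 1996 and 1612 in GO replicates 1, 2 and 3 and at 1117, 1090.0 and 1631 in CK. GO replicates 1 and 2 were the highest libraries for hbae3 and CK replicates 1 and 2 the lowest, with the replicate 3 pair between them. The gene hbae1.3 was at 906, 826 and 1669 TPM in GO and at 543, 536 and 1488 TPM in CK. Both replicate 3 libraries lay above all others for hbae1.3. The gene hbae1.1 was at 216, 200.1 and 83.2 TPM in GO and at 83.3, 117 and 55.7 TPM in CK, lowest in the replicate 3 library of each group. The minor locus gene hbae5 was at 9.70, 5.15 and 99.2 TPM in GO and at 4.09, 1.96 and 35.1 TPM in CK. Its counts were only 7 to 26 outside replicate 3, so its level there carries large counting error.

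The beta chains were led by hbbe1.1, the globin with the highest level of the 9 in every library. It was at 2210.1, 2179 and 1746 TPM in GO replicates 1, 2 and 3 and at 1256, 1214 and 1791 TPM in CK. Its order of libraries was that of hbae3, with GO replicates 1 and 2 on top, the replicate 3 pair in the middle and CK replicates 1 and 2 at the bottom. The gene hbbe1.3 was at 829.7, 859 and 576 TPM in GO and at 545, 502 and 617 TPM in CK, and hbbe1.2 at 400.1, 369 and 508 TPM in GO and at 259, 251 and 523 TPM in CK. For hbbe1.3 the replicate 3 libraries lay between the other GO and the other CK libraries in TPM, but not in CPM scaled between libraries. There GO replicate 3 was at 161 CPM and CK replicate 1 at 169 CPM. For hbbe1.2 the replicate 3 libraries lay above all others. The minor locus gene hbbe2 was at 359.9, 375 and 921 TPM in GO and at 260.5, 268 and 802 TPM in CK, again highest in the replicate 3 pair. The last gene, hbbe3, had 1 count in GO replicate 1, 1 count in CK replicate 3 and 0 elsewhere.

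**Figure D1:**
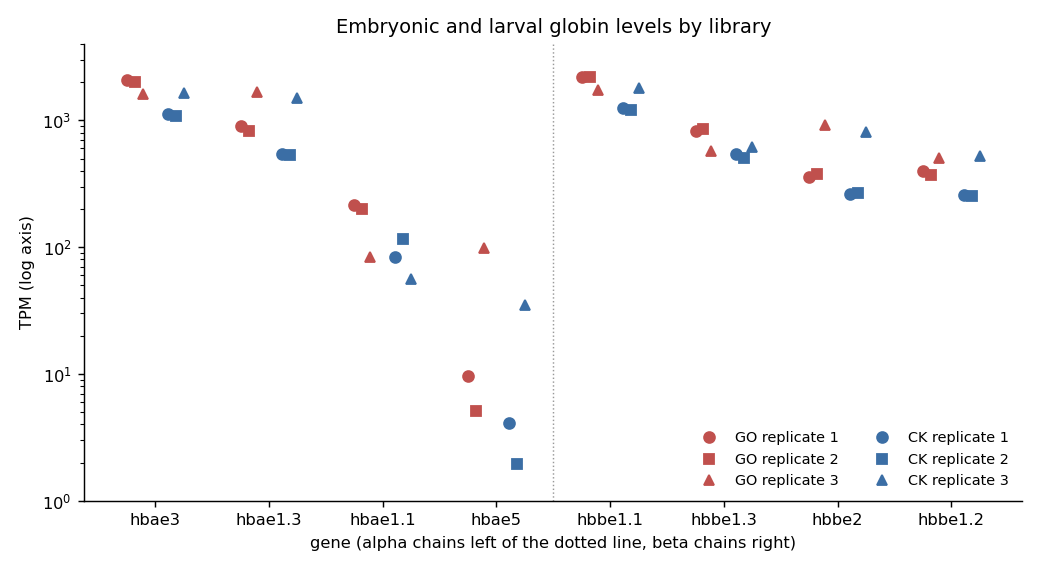
Level of 8 embryonic and larval globin genes in TPM on a log axis, one point per library, with GO in red left of CK in blue and the replicate number as the symbol (hbbe3, at or near 0, is not drawn). In replicates 1 and 2 every gene drawn is higher in GO than in the CK library of the same number. The genes hbae1.3, hbae5, hbbe1.2 and hbbe2 are highest in replicate 3 of each group.

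The order of the genes by mean TPM was hbbe1.1, hbae3, hbae1.3, hbbe1.3, hbbe2, hbbe1.2, hbae1.1, hbae5 and hbbe3. Neighbours were not always separate: hbbe1.1 was above hbae3 in all 6 libraries, but hbae1.3 was above hbbe1.3 in 4 of 6, and hbbe2 above hbbe1.2 in 5 of 6. In replicate 3 of both groups hbbe2 was also above hbbe1.3, and in GO replicate 3 hbae5 was above hbae1.1. The expected counts can divide a read between genes. The count was not whole in 5 or 6 libraries for hbae1.1, hbae1.3, hbbe1.1, hbbe1.2 and hbbe1.3, and in none for hbae3. Levels of these 5 genes are uncertain to that extent, and the effect of the division on them was not tested. The gene hbae1.1 was at 83.3 TPM in CK replicate 1 and 117 TPM in CK replicate 2. Summed, hbae1.1, hbae1.3 and LOC100334599 were at 1561, 1502 and 2245 TPM in GO replicates 1, 2 and 3 and at 914, 921 and 2014 TPM in CK.

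The summed level of the 9 genes was 7024, 6810 and 7214 TPM in GO and 4067, 3980 and 6942 TPM in CK. CK replicates 1 and 2 were the low libraries, and CK replicate 3 lay within the range of GO. The log2 ratio of the group means was 0.49, or 0.80 without CK replicate 3. As a share of all expected counts the genes took 0.1771% (95% Wilson interval 0.1746% to 0.1796%), 0.1699% (0.1676% to 0.1721%) and 0.1863% (0.1837% to 0.1889%) in GO replicates 1, 2 and 3. In CK they took 0.1136% (0.1115% to 0.1157%), 0.1101% (0.1083% to 0.1119%) and 0.1799% (0.1774% to 0.1823%). The intervals of CK replicates 1 and 2 lay apart from all 4 others. These intervals cover counting error only. In bulk libraries such as these, fewer red cells and less globin RNA per red cell cannot be told apart.

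Alpha and beta transcripts were both low in CK replicates 1 and 2 and both higher in the other 4 libraries. The 4 alpha genes summed to 3224, 3027 and 3463 TPM in GO and to 1747, 1744 and 3210 TPM in CK, and the 5 beta genes to 3800.4, 3783 and 3751 TPM in GO and to 2320, 2236 and 3733 TPM in CK. The alpha to beta ratio was 0.848, 0.800 and 0.923 in GO and 0.753, 0.780 and 0.860 in CK, or 0.857 ± 0.062 and 0.798 ± 0.055 (SD, n = 3 each). Within the GO libraries the chains did not share an order, since replicate 3 had the highest alpha and the lowest beta sum. The ratios of the 2 groups overlapped, and the difference of the means was about the size of the spread within a group, but the GO ratio was the higher one in all 3 same-numbered pairs. In both groups replicate 3 had the highest ratio. With LOC100334599 and hbz added to the alpha chains, the ratio was 0.983 ± 0.067 in GO and 0.922 ± 0.057 in CK. For the leading gene of each chain type, hbae3 over hbbe1.1, the ratio was 0.947, 0.916 and 0.923 in GO and 0.890, 0.898 and 0.911 in CK. Every GO library was above every CK library, at the closest by 0.916 against 0.911. No error was computed for these ratios, and the counts of hbbe1.1 can include divided reads, so this separation is a description. The ratios of hbae1.3 to hbae3 and of hbbe1.2, hbbe1.3 and hbbe2 to hbbe1.1 overlapped between the groups. How many gene pairs separate the groups in this way is not given here. The levels of hbae3 and hbbe1.1 ranged over 1090.0 to 2093 and 1214 to 2210.1 TPM.

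The make-up within each chain type differed between replicate 3 and the others, in the same way in GO and in CK. The gene hbae3 gave 64.9%, 65.9% and 46.5% of alpha TPM in GO replicates 1, 2 and 3 and 63.9%, 62.5% and 50.8% in CK. The gene hbae1.3 gave 28.1%, 27.3% and 48.2% in GO and 31.1%, 30.7% and 46.3% in CK. Among the 4 alpha genes, replicate 3 thus held nearly equal parts of hbae3 and hbae1.3, where replicates 1 and 2 held mostly hbae3. LOC100334599 is not in these shares. Summed with hbae1.1 and hbae1.3, it was at 2245 and 2014 TPM in GO and CK replicate 3, above hbae3 at 1612 and 1631 TPM. In replicates 1 and 2 of both groups that sum was below hbae3. Among the beta genes, hbbe2 gave 9.47%, 9.92% and 24.6% of TPM in GO and 11.2%, 12% and 21.5% in CK, while hbbe1.1 gave 58.2%, 57.6% and 46.6% in GO and 54.1%, 54.3% and 48.0% in CK. Minor locus genes together made up 5.27%, 5.58% and 14.1% of the TPM of the 9 genes in GO and 6.51%, 6.79% and 12.1% in CK.

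**Figure D2:**
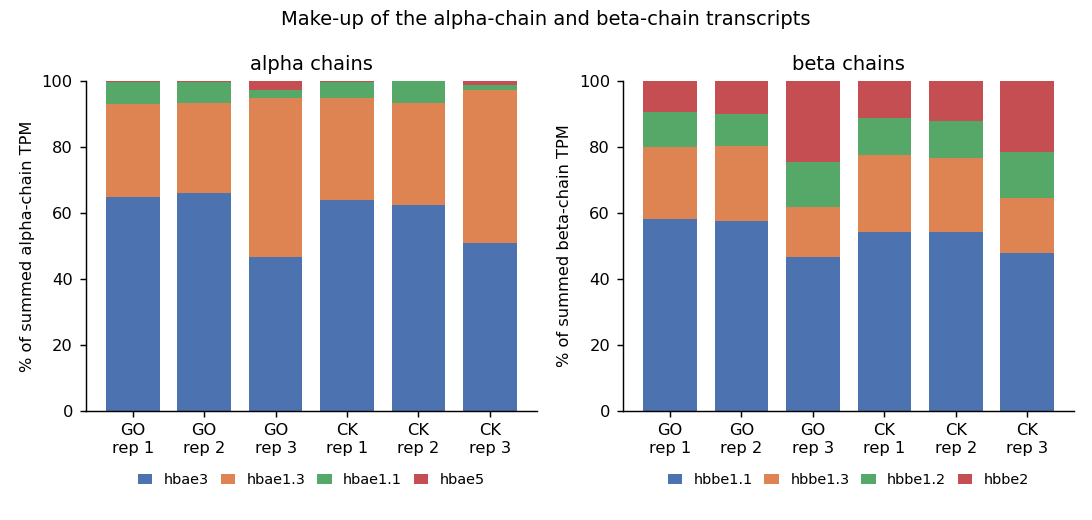
Share of each gene in the summed alpha-chain TPM (left) and beta-chain TPM (right) in %, one bar per library with GO left of CK (hbbe3, under 0.02%, is not drawn). The alpha sum does not include LOC100334599. In replicate 3 of both groups hbae1.3 and hbbe2 take larger parts, 48.2% and 24.6% in GO and 46.3% and 21.5% in CK.

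Over all 6 libraries, the comparison of GO with CK asks whether graphene oxide changed globin transcripts. No globin passed the test. The edgeR quasi-likelihood test called 0 of the 8 genes tested (hbbe3 was too low to enter), beside 0% of all 19313 genes tested, and every adjusted p was 0.99988. The 8 log2 fold changes were positive, with a median of 0.36 beside -0.0006 for all genes. In CPM scaled between libraries by TMM (trimmed mean of M-values), hbae3 averaged 490.2 ± 54.9 in GO and 360.4 ± 63.3 in CK (SD, n = 3 each), and its log2 fold change was 0.44 ± 0.16 (SE). The gene hbbe1.1 averaged 519 ± 53.9 CPM in GO and 393 ± 64.4 CPM in CK, a log2 fold change of 0.40 ± 0.16. These 2 genes had an unadjusted p under 0.05 (0.0354 and 0.0428, edgeR), as did 438 of all genes (2.27%). For hbbe2 the log2 fold change was 0.24 ± 0.57 and for hbae5 1.44 ± 1.45, with the replicate 3 pair setting the spread.

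No globin had all GO libraries above all CK libraries, as 3.67% of all genes tested did. DESeq2 called 10 genes and limma on log2(FPKM + 1) called 0, with no globin among them. A block for the replicate number also left 0 of 8 globins past the threshold, with adjusted p of 0.218 to 0.359 (edgeR), and 6 of the 8 had an unadjusted p under 0.05, beside 14.5% of all genes.

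Within the numbered pairs the difference between GO and CK was present in replicates 1 and 2 and small in replicate 3 for the most abundant globins. All 8 genes were higher in GO in pair 1 and in pair 2, with median log2 differences of 0.57 and 0.57. In pair 3, 4 of the 8 were higher, with a median of 0.08. Over all genes the medians were -0.003, -0.005 and -0.006. The genes hbae1.1, hbae1.3, hbae5 and hbbe2 were higher in GO in all 3 pairs, 4 of 8 beside 18.1% of all genes. The gene hbae5 had log2 differences of 0.94, 0.98 and 1.49 in pairs 1, 2 and 3, resting on 26, 16 and 279 counts in GO and 11, 7 and 106 in CK. The gene hbae3 had differences of 0.70, 0.67 and -0.01, and hbbe1.1 of 0.61, 0.64 and -0.03.

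**Figure D3:**
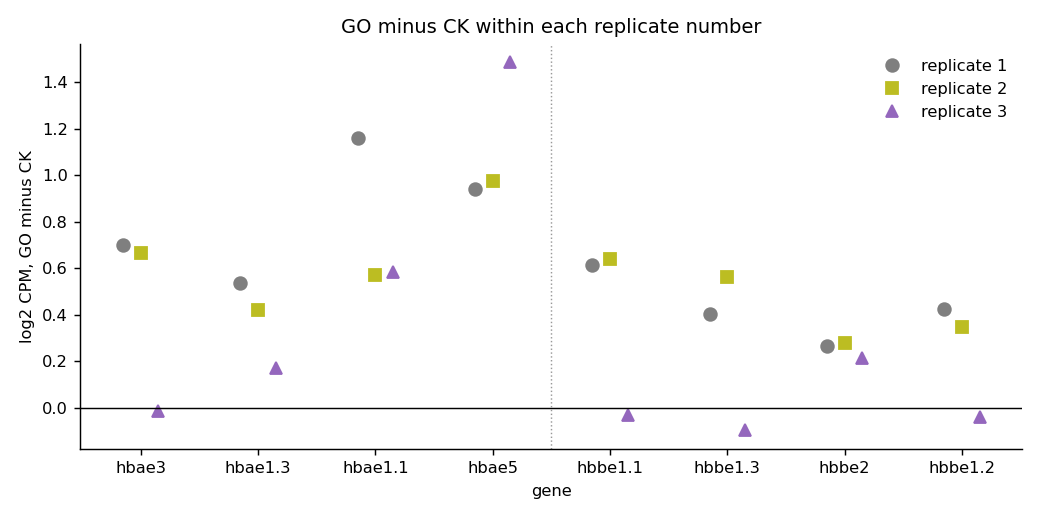
Difference in log2 CPM between the GO and the CK library of the same replicate number, for 8 globin genes with alpha chains left of the dotted line. Replicates 1 and 2 lie above 0 for every gene, while replicate 3 lies at -0.10 to -0.01 for hbae3, hbbe1.1, hbbe1.2 and hbbe1.3.

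In replicates 1 and 2 alone, 7 of the 8 tested globins were called higher in GO and none lower (edgeR quasi-likelihood test). Of all 19289 genes tested, 12.9% were called higher and 12% lower. The gene hbae3 was at 535 and 506 CPM in GO and at 329 and 319 CPM in CK, a log2 fold change of 0.69 ± 0.03 (SE, adjusted p = 3.08e-70). The gene hbbe1.1 was at 556 and 543 CPM in GO and at 364 and 349 CPM in CK, a log2 fold change of 0.63 ± 0.03 (adjusted p = 4.69e-65). The largest fitted rise among called globins was that of hbae1.1, at 45.1 and 41.2 CPM in GO and 20.1 and 27.7 CPM in CK (0.82 ± 0.09). Its log2 difference was 1.16 in pair 1 but 0.57 in pair 2, below the 0.67 of hbae3 there. Rises of 0.48 ± 0.04, 0.49 ± 0.04 and 0.39 ± 0.06 were fitted for hbae1.3, hbbe1.3 and hbbe1.2, and the smallest was 0.27 ± 0.06 for hbbe2 (adjusted p = 0.000274). For hbae5 the log2 fold change was 1.12 ± 0.48, which did not pass (adjusted p = 0.076). The spread here is only that between replicates 1 and 2, so these p-values say that the GO and CK libraries differed, not that the treatment made them differ. Here and below, a rise or fall means a higher or lower level in GO than in CK.

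Other transcripts also differed between GO and CK in replicates 1 and 2, in both directions. A list of 12 blood vessel endothelial markers summed to 168 and 165 CPM in GO replicates 1 and 2 and to 115 and 106 CPM in CK replicates 1 and 2, with 5 of 12 members called higher and 0 lower, beside 12.9% and 12% of all genes. Of 18 tested hepatocyte markers 14 were called lower, and of 16 muscle markers 14 were lower and 1 higher. A list of 10 leukocyte markers summed to 67.9 and 67.2 CPM in GO and to 74.1 and 74.0 CPM in CK. The part of these shifts in the globin difference was not tested.

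The test of the difference between pairs gave a smaller GO effect in replicate 3 than in replicates 1 and 2 for 5 of 8 globins, beside 7.59% of all genes (edgeR, interaction term). They were hbae3 (-0.70 ± 0.05 on the log2 scale, SE, adjusted p = 1.06e-27), hbbe1.1 (-0.66 ± 0.05), hbbe1.3 (-0.59 ± 0.07), hbbe1.2 (-0.43 ± 0.09) and hbae1.3 (-0.31 ± 0.06). For hbae1.1, hbae5 and hbbe2 the term was -0.24 ± 0.21, 0.38 ± 0.51 and -0.06 ± 0.09 and did not pass. Each replicate 3 library is the only one of its kind in its group and was assumed to vary like replicates 1 and 2.

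Among the globins, as among all genes, replicate 3 differed from replicates 1 and 2 in both directions. This comparison is a description, since replicate number is no group of the study. Both replicate 3 libraries lay above the other 4 for hbae1.3, hbae5, hbbe1.2 and hbbe2, 4 of 8 genes beside 32.4% of all genes, and below them for hbae1.1, 1 of 8 beside 31.2%. The gene hbae5 was at 25.5 CPM in GO replicate 3 against 2.39 and 1.26 CPM in GO replicates 1 and 2, and at 8.98 CPM in CK replicate 3 against 1.16 and 0.553 CPM. The gene hbbe2 was at 199.6 CPM against 75.2 and 77.4 CPM in GO and at 172 CPM against 62.6 and 63.7 CPM in CK, a log2 difference of 1.39 and 1.44. The gene hbae1.3 had differences of 1.01 in GO and 1.32 in CK, and hbae1.1 of -1.25 and -0.97.

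The genes hbae3, hbbe1.1 and hbbe1.3 had opposite signs in the 2 groups. Replicate 3 minus the mean of replicates 1 and 2 was -0.28, -0.27 and -0.49 in GO and 0.42, 0.39 and 0.09 in CK, on the log2 scale. Over all genes the median was 0.005 in GO and -3.3e-05 in CK. The hepatocyte, endothelial and leukocyte marker sums were higher in both replicate 3 libraries than in the other 4. The skeletal muscle and the lens and eye marker sums were lower there. The 12 endothelial markers summed to 261 CPM in GO replicate 3 and 256 CPM in CK replicate 3, with 10 of 12 members above the other 4 libraries. So were 19 of the 20 hepatocyte markers, of which only 18 were abundant enough to be tested. Of all genes tested, 32.4% lay above the other 4 libraries. The part of these marker shifts in the globin difference was not tested.

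**Figure D4:**
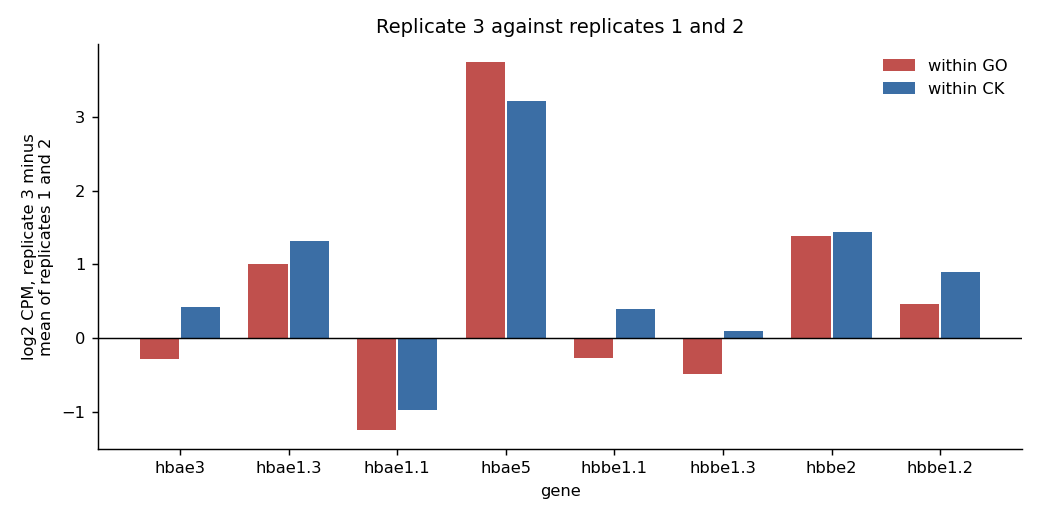
Log2 CPM of replicate 3 minus the mean of replicates 1 and 2, within GO (red, left) and within CK (blue, right), for 8 globin genes. The minor locus genes hbae5 and hbbe2 and the major locus gene hbae1.3 are higher in replicate 3 by at least 1.01 in both groups, and hbae1.1 is lower.

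The minor locus genes hbbe3, hbbe2 and hbae5 stand on 2 rows each in the tables under 1 gene ID, and these rows were summed. The less used row of hbbe2 held 539 of the gene's counts in GO replicate 3 (24.6%) and 445.58 in CK replicate 3 (21.9%), and 0 in GO and CK replicates 1 and 2. For hbae5 it held 47.74 counts (17.1%) in GO replicate 3 and 13.11 (12.4%) in CK replicate 3, and 0 in the other 4. Among 3774 genes on several rows with at least 20 counts in every library, 93 (2.46%) had 0 in the other rows in replicates 1 and 2 and at least 10% of their reads there in both replicate 3 libraries. The gene hbbe2 was 1 of them, and hbae5 had too few counts to be included. A further 40 genes had the reverse pattern.

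Outside the 9 genes, LOC100334599 of the major locus was at 440, 476 and 493 TPM in GO and at 288, 269 and 471 TPM in CK. The minor locus gene hbz was low, at 4, 15 and 36 counts in GO and 7, 8 and 13 counts in CK. Of the globins of other cells, myoglobin (mb, the oxygen store of muscle) was at 201, 206 and 109 CPM in GO and at 177, 198 and 111 CPM in CK, lower in replicate 3, with a rise of 0.11 (log2) in replicates 1 and 2 (adjusted p = 0.0252, edgeR). Neuroglobin (ngb) was at 33.3, 35.7 and 23.2 CPM in GO and 40.0, 36.5 and 32.0 CPM in CK, and the cytoglobin genes cygb1 and cygb2 had log2 fold changes of -0.04 and -0.09 in replicates 1 and 2, not past the threshold. The cytoglobin gene cygb1 was at 80.3 and 78.0 CPM in GO and CK replicate 3, above 29.3 to 32.1 CPM in the other 4. The related gene xgb was at most 1.101 CPM.

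The genes on the other red cell lists that passed the test in replicates 1 and 2 went in both directions. None was called over all 6 libraries. These lists were drawn up by name and hold many genes that other tissues also use, so they do not measure red cells alone. The counts below stand beside 12.9% of all genes called higher and 12% called lower, and whether a list differs from the globins was not tested. Of 20 tested genes of haem synthesis and iron uptake 4 rose and 3 fell, with a median log2 fold change of -0.01. Their most abundant members were the ferritin gene fth1a, which rose by 0.08 (log2), and 3 genes of mitochondrial haem and iron handling, atpif1a, tmem14ca and glrx5, which fell by 0.45, 0.43 and 0.42. The transferrin receptor gene tfr1a, hebp2 and alas2, named as the remaining calls of this list, rose by 0.27, 0.49 and 0.50. Of 14 tested membrane and cytoskeleton genes 3 rose and 2 fell (median 0.08). Among the most abundant of these, the spectrin gene spna2 and the water channel gene aqp1a.1 rose by 0.22 and 0.33, and the ankyrin gene ank1a and the tropomodulin gene tmod4 fell by 0.32 and 0.22.

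Of 12 genes listed as red cell enzymes and cytosol, 5 rose and 1 fell (median 0.06). The carbonic anhydrase gene cahz rose by 0.21 and the thioredoxin gene txn by 0.23, the peroxiredoxin gene prdx2 fell by 0.17, and the nucleotidase gene nt5c3a had a log2 fold change of -0.13, not past the threshold. The remaining calls were the carbonic anhydrase gene ca2, hbegfa and creg1, with rises of 0.51, 0.92 and 0.31. The genes hbegfa and creg1 do not code for red cell enzymes, so the name of the list does not describe all 5 rises. Of 17 tested erythroid transcription factor and signalling genes, out of 22 listed, 5 rose and 1 fell (median 0.15). The listed genes gata1a, klf1, nfe2, drl and hhex were too low to enter the test, at most 3.83 CPM. The most abundant members klf3, klf6a, bcl11aa and bcl11ab rose by 0.85, 0.30, 0.45 and 0.18. The remaining calls were myb, a blood progenitor factor, which rose by 0.31, and tal1, a factor needed for blood formation, which fell by 0.56 (adjusted p = 3.70e-08, edgeR). The gene tal1 was at 25.7, 31.0 and 19.9 CPM in GO and at 43.9, 40.4 and 19.1 CPM in CK. Many of these genes are also used by other tissues. Of 3 tested genes of haem clearance 1 fell, the haem oxygenase gene hmox2a, by 0.34. The other haem oxygenase gene hmox1a was at 43.0 CPM in GO replicate 3 and 16.4 CPM in CK replicate 3, against 0.528 to 1.11 CPM in the other 4, and the biliverdin reductase gene blvra and the haem-binding plasma protein gene hpx were at most 4.22 and 4.56 CPM.

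A few genes that red cells use are given here with their levels. They, and the remaining calls named above, were chosen after their values were seen, so they stand for no list. The gene alas2, the first step of haem synthesis in red cells, was at 17.4, 16.9 and 45.3 CPM in GO and at 11.6, 12.5 and 27.9 CPM in CK, with a rise of 0.50 in replicates 1 and 2 (adjusted p = 0.00251, edgeR). The ammonium channel gene rhag of the red cell membrane was at 31.6, 27.3 and 184 CPM in GO and at 19.3, 16.0 and 175 CPM in CK, with a rise of 0.75 (adjusted p = 4.71e-09, edgeR). The anion exchanger gene slc4a1a was at 15.5, 15.8 and 62.4 CPM in GO and at 15.1, 13.0 and 50.1 CPM in CK, with a log2 fold change of 0.17 that did not pass (adjusted p = 0.399, edgeR). All 3 genes lay higher in both replicate 3 libraries than in the other 4, as did 32.4% of all genes tested. Of the 14 tested membrane and cytoskeleton genes, 7 lay above the other 4 libraries and 6 below. Of the 20 tested genes of haem synthesis and iron uptake, 12 lay above and 3 below.

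The genes whose log2 CPM followed the summed globin CPM most closely over the 6 libraries were pkhd1l1, the lens crystallin gene crybb1l1, the chondroitin synthesis gene csgalnact1a, the amino acid transporter gene slc1a5 and the growth factor binding protein gene igfbp1a. Their Pearson correlations were 0.993 to 0.996, given as a description over 6 libraries that fall into few distinct kinds. Of 13108 named genes compared, 595 (4.54%) had a correlation above 0.9. The lens gene crybb1l1, for example, was at 145, 141 and 178 CPM in GO and at 41.8, 43.9 and 176 CPM in CK, low in CK replicates 1 and 2 as the summed globins were. A list of 10 other lens and eye markers summed to 3226, 3173 and 2606 CPM in GO and to 3379, 3390 and 3015 CPM in CK. That sum did not share the order. Its members were split in replicates 1 and 2, where 5 of 9 tested were called higher in GO and 4 lower. Of all genes, 12.9% were called higher and 12% lower. Among red cell genes, cahz, alas2, rhag and slc4a1a ranked 575, 1625, 2011 and 2897 by the same measure (0.90, 0.78, 0.74 and 0.64). The haem oxygenase gene hmox1a ranked 3063 (0.62).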

How the data were processed

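Each of the 6 tables listed 43106 rows. Among the deposited measures, the expected count is an estimated count for a row and is not scaled between libraries. TPM and FPKM, named so by the authors in the headers, are levels scaled for length and depth. Bowtie2 2.3.2 and GRCz11 are named in the submitters' processing notes. Which program counted reads, and whether it used strand, is not given in the sources used here.

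Rows were summed by gene ID (5932 IDs had more than 1 row). Counts were rounded and tested with edgeR 4.0.16 (R 4.3.3), TMM scaling, quasi-likelihood test and Benjamini-Hochberg adjustment over all genes with a mean FPKM of at least 1, two-sided, threshold 0.05. Log2 CPM used a prior count of 2. The test was checked on simulated data with a spread between libraries common to all genes and no shift of replicate 3. That check does not cover the replicate 3 difference seen here. At the spread of the main fit it set no minimum for the changed genes recovered. It thus does not show what size of change the main test could find. Alternatives were DESeq2 1.42.0, limma 3.58.1, other scalings, filters and designs, and leaving out each library. The members, lists and tests were chosen with earlier results of these data known.

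Deviations from the group means of same-numbered libraries correlated at 0.73, 0.75 and 0.87 across genes. Libraries numbered 1 and 2 also correlated across numbers at 0.72 and 0.74, so these values do not tell which of them belong together. The labels do not say that the numbers pair samples. The main test was therefore unpaired, the numbered pairs are a description and the replicate block is an alternative. All 9 globins were named, then the other globin genes, the 4 most abundant of each red cell list and the 5 genes most correlated with the globin sum. hbz had been listed with the adult globins and is given with the minor locus. RefSeq names follow assembly GRCz12tu, a different build, and 30570 of 36191 IDs were found there.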

Additional observations from a re-analysis of the deposited data

Results flagged for a closer look

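For 5 globins the difference between GO and CK passed a test of being unlike between replicate 3 and replicates 1 and 2 (edgeR interaction term, replicate 3 minus replicates 1 and 2, log2 scale). Replicate 3 holds 1 library per group, and the spread in this test is only that between replicates 1 and 2. The values were -0.70 for hbae3, -0.66 for hbbe1.1, -0.59 for hbbe1.3, -0.43 for hbbe1.2 and -0.31 for hbae1.3. In each case GO was higher than CK in replicates 1 and 2, and in replicate 3 the difference was near 0 or, for hbae1.3, 0.17.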

How the results depend on the processing

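The count of called globins was 0 under each alternative but one, the fit of replicates 1 and 2 alone, which called 7. The count over all genes was 0 apart from 10 with DESeq2, 68 with a term for replicate number 3 and 4812 in replicates 1 and 2 alone. The replicate block called 0 genes and 0 globins, with log2 fold changes of 0.45 for hbae3 and 0.41 for hbbe1.1. Leaving out 1 library gave log2 fold changes of -0.10 to 0.90 for hbae1.3, -0.97 to 3.51 for hbae5 and -0.38 to 0.89 for hbbe2. The negative ends came without GO replicate 3, which leaves replicate 3 in CK alone, and hbbe2 was also just below 0 without CK replicate 1 (-0.0067) or CK replicate 2 (-0.00033). By leaving out 1 library the log2 ratio of the mean summed level, GO over CK, ranged over 0.35 to 0.80 (0.49 in full), and in CPM it was 0.37 and 0.40. The alpha to beta ratio with the 2 further alpha genes, added after the data were seen, was 0.983 in GO and 0.922 in CK. The ratio of the 9 genes (0.857 and 0.798) moved by less than the spread with counts, with FPKM or without any 1 library. Low counts limit hbae5, hbbe3 and the adult globins.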
